A study of Mus musculus with 6 samples.

Results

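The genes described here encode aminoacyl-tRNA synthetases, the enzymes that attach each amino acid to its transfer RNA. The 35 genes were taken from a list of symbols and matched to the Ensembl identifiers of the deposited table through a gene name table, using older symbols where needed. All 35 were found among 55416 genes in the table, 19 for cytosolic enzymes and 16 for mitochondrial enzymes, whose names end in 2. All 35 passed the filter on low counts, which left 17679 genes.

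All libraries came from MB21, mouse medulloblastoma cells grown in non-adherent culture. A ptch mutation, in the gene of a receptor that holds hedgehog signalling in check, is present in both groups. The 3 DS38 libraries came from cells given DS-1-38, a benzarone derivative, at 10 uM for 1 day, and the 3 DMSO libraries from cells given the vehicle for 1 day. The series design text names a longer treatment than the sample titles and the treatment protocol, which both give 1 day. Whether the replicates are separate cultures is not stated, and the p-values therefore reflect only the spread between these libraries, which may be technical.

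A synthetase first activates its amino acid with ATP and then transfers it to the matching tRNA, so the enzymes set the supply of charged tRNA for translation. Translation in the cytosol and in mitochondria draws on separate tRNA sets, and most amino acids therefore have a cytosolic and a mitochondrial enzyme, each from its own nuclear gene. Gars1 and Kars1 are exceptions, since each makes both the cytosolic and the mitochondrial form, and Eprs1 joins the glutamate and proline enzymes in a single chain. Many cytosolic synthetase genes are known targets of ATF4, a transcription factor made when eIF2alpha is phosphorylated in the integrated stress response.

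Library totals were 60434089 to 84044428 counts in DS38 and 38840296 to 50014681 counts in DMSO, so every DS38 library was deeper. All 8 genes listed as granule cell progenitor markers were tested. By edgeR 2 of the 8 were higher and 4 lower in DS38, beside 12.9% higher and 11.7% lower over all genes tested. Atoh1 and Barhl1 were higher, with log2 fold changes of 0.33 and 0.27. Neurod1, Gli1, Zic2 and Zic1 were lower, at -0.37, -0.15, -0.14 and -0.10. Their sum joins these opposite changes, at 1758 to 1791 CPM (counts scaled to library size) in DS38 and 1748 to 1781 CPM in DMSO over the 8 markers. Of 5 microglial markers 0 were tested and Tyrobp had 0 counts. The endothelial list summed to 0.998 to 1.18 CPM in DS38 and 0.931 to 1.27 CPM in DMSO, with Cldn5 and Kdr at 0. Astrocyte markers summed to 390 to 401 CPM in DS38 and 448 to 471 CPM in DMSO, nearly all of it from Slc1a2 and Slc1a3, while Aqp4 had 3 counts in all. Of the 4 astrocyte markers tested, edgeR called 1 higher, Gfap (log2 fold change 0.32), and 1 lower, Slc1a2 (-0.31). The oligodendrocyte list summed to 4.21 to 4.97 CPM in DS38 and 4.49 to 4.81 CPM in DMSO. The fibroblast list summed to 1.84 to 2.17 CPM in DS38 and 1.15 to 1.34 CPM in DMSO. The part of these lists in the results was not tested.

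After 1 day of DS38, transcripts of 10 of the 19 cytosolic synthetases rose and 0 fell, and those of 4 of the 16 mitochondrial synthetases rose and 2 fell. Among the cytosolic enzymes the largest rise was that of Sars1, the serine enzyme, by 14.0%. Among the mitochondrial ones Pars2, Vars2 and Tars2, the proline, valine and threonine enzymes, rose by 19.5%, 19.1% and 18.5%. The median log2 fold change was 0.08 over the cytosolic genes and 0.01 over the mitochondrial genes, against 0.004 over all genes tested. Over all genes, edgeR's quasi-likelihood test called 24.5% at an adjusted p under 0.05, 12.9% higher and 11.7% lower in DS38. The 2 mitochondrial falls are near that lower share and are not a result about these genes. They were Lars2, whose groups overlapped, and Yars2, and both calls were lost in several alternative analyses. Libraries are of bulk RNA, so fewer cells that express a gene and less RNA per cell cannot be told apart. The split of calls over all genes, 2272 higher and 2068 lower, was 3289 and 1543 when libraries were scaled by their totals alone. That scaling gave 11 cytosolic genes higher and 0 lower, and 6 mitochondrial genes higher and 1 lower. With a correction for gene length, 6 cytosolic genes were higher and 2 lower, and their median was 0.04. With library totals alone the median was 0.05 over the mitochondrial genes and 0.04 over all genes tested.

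**Figure D1:**
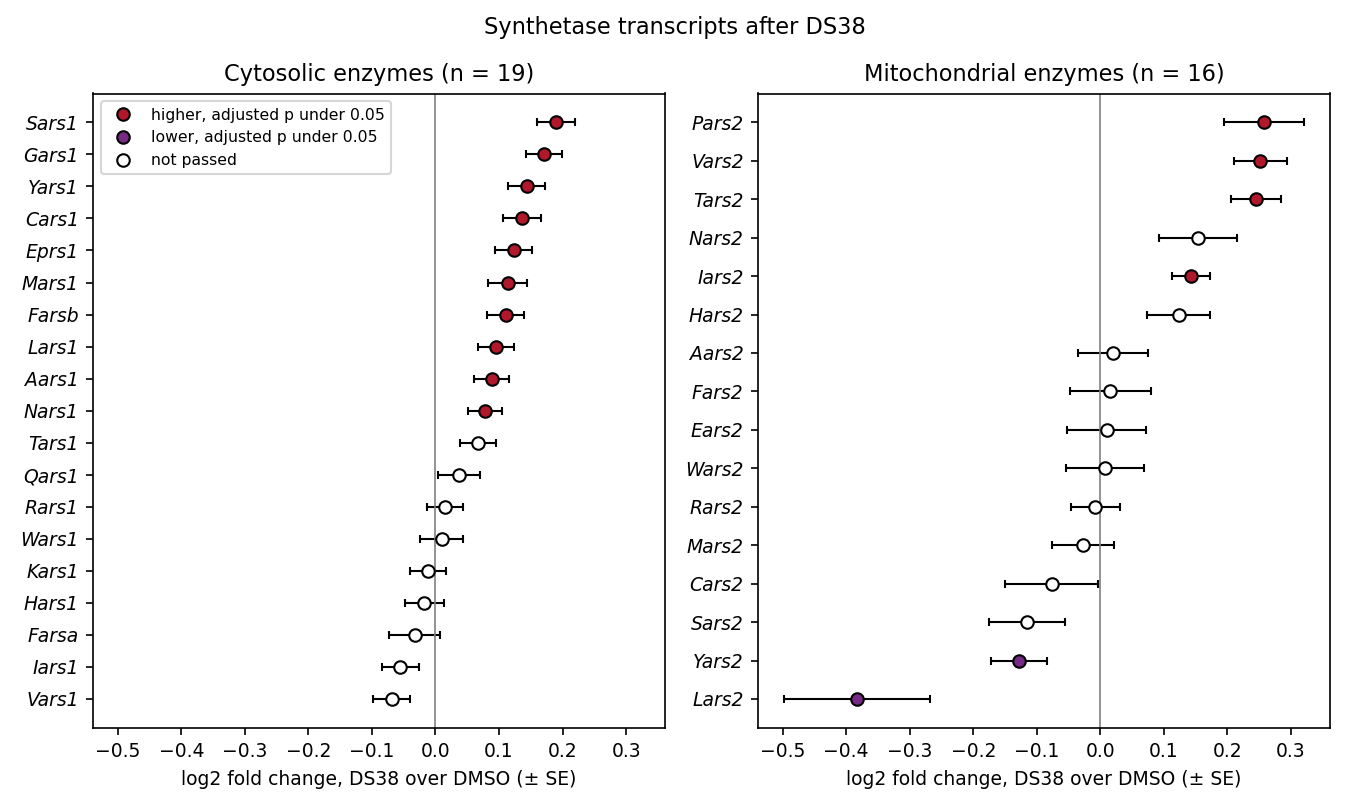
Log2 fold change (DS38 over DMSO, x axis) with its standard error for each of 19 cytosolic (left) and 16 mitochondrial (right) synthetase genes, in order of size; fill shows the edgeR call at an adjusted p of 0.05. The cytosolic values run from -0.07 for Vars1 to 0.19 for Sars1 and the mitochondrial values from -0.38 for Lars2 to 0.26 for Pars2.

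Sars1 (ENSMUSG00000068739), which charges serine tRNA and also places serine on the separate selenocysteine tRNA, was at 283, 277 and 281 CPM in DS38, against 236.8, 251.4 and 250.2 CPM in DMSO. Every DS38 library lay above every DMSO library. The log2 fold change was 0.19 ± 0.029 (SE; by edgeR, adjusted p = 6.45e-05).

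Gars1 (ENSMUSG00000029777), the glycine enzyme of both compartments, was at 614, 605 and 616 CPM in DS38 and at 526, 551 and 554 CPM in DMSO. The DS38 libraries lay close together and all above the DMSO libraries, among which replicate 1 was lowest. The log2 fold change was 0.17 ± 0.028 (SE; by edgeR, adjusted p = 0.000138).

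Yars1 (ENSMUSG00000028811), the tyrosine enzyme, was at 185, 183 and 181 CPM in DS38, against 162, 167 and 169 CPM in DMSO. The groups did not overlap, and the log2 fold change was 0.14 ± 0.029 (SE; by edgeR, adjusted p = 0.000826). Cars1 (ENSMUSG00000010755), the cysteine enzyme, was at 117.4, 120.9 and 117.5 CPM in DS38 and at 104.9, 109.01 and 109.96 CPM in DMSO. These groups did not overlap either, and Cars1 rose by 0.14 ± 0.030 on the log2 scale (SE; by edgeR, adjusted p = 0.00217).

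Eprs1 (ENSMUSG00000026615), an enzyme of the multisynthetase complex, had the most reads of all members, with 824, 814 and 849 CPM in DS38 and 772, 775 and 737 CPM in DMSO. The lowest DS38 library stood above the highest DMSO library. The log2 fold change was 0.12 ± 0.029 (SE; by edgeR, adjusted p = 0.00357), and 0.24 with the length correction, Eprs1 having by far the longest exon length of the cytosolic members at 18102 bases. Mars1 (ENSMUSG00000040354), the methionine enzyme of the same complex, was at 180.1, 175.7 and 179.1 CPM in DS38, against 158.5, 164.9 and 171.2 CPM in DMSO. Its groups did not overlap, and it rose by 0.11 ± 0.031 on the log2 scale (SE; by edgeR, adjusted p = 0.00904). In the GENCODE annotation 68 exon bases of Mars1 lie opposite Ddit3, a stress-induced transcription factor gene chosen for mention after its values were seen, at 15.7 ± 1.195 CPM in DS38 and 10.8 ± 0.102 CPM in DMSO (SD, n = 3 each). Whether reads were counted by strand is not given, so reads from that overlap cannot be assigned with certainty.

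The other 4 cytosolic genes that rose did so by less. Farsb, the beta subunit of the phenylalanine enzyme, rose by 0.11 ± 0.030 on the log2 scale (SE; by edgeR, adjusted p = 0.00881). Lars1, the leucine enzyme, which also serves as a leucine sensor for mTORC1, was at 298, 297 and 310 CPM in DS38, against 280, 286 and 281 CPM in DMSO. Its groups did not overlap (log2 fold change 0.10 ± 0.028, SE; by edgeR, adjusted p = 0.0159). Aars1 and Nars1, the alanine and asparagine enzymes, rose by 0.09 ± 0.027 and 0.08 ± 0.027 on the log2 scale (SE; by edgeR, adjusted p = 0.0211 and 0.0373). Nars1 stood nearest to the threshold and passed in 7 of 16 alternative analyses, with adjusted p from 0.00257 to 0.233. It passed when DMSO replicate 3 was left out, and did not when any other library was. Aars1 did not pass without DS38 replicate 1, DS38 replicate 3 or DMSO replicate 2 (edgeR adjusted p = 0.0998, 0.0886 and 0.0595). Lars1 did not pass without DS38 replicate 3 (edgeR adjusted p = 0.110), nor Mars1 without DS38 replicate 1 (edgeR adjusted p = 0.0519). Farsb, Lars1, Mars1 and Nars1 were the genes lost with the length correction. Cars1, Eprs1, Gars1, Sars1 and Yars1 passed in all 16. Aars1 shares 1326 exon bases with Exosc6 on the same strand, and Exosc6 was listed at 0 counts in all 6 libraries, so reads from those bases cannot be assigned with certainty. Farsb shares 248 exon bases with Sgpp2 and Yars1 shares 30 with C77080, both on the other strand.

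For the other 9 cytosolic genes the test was not passed. Tars1, the threonine enzyme, did not overlap between groups, with 238 to 245 CPM in DS38 and 225 to 234 CPM in DMSO (log2 fold change 0.07 ± 0.028, SE; by edgeR, adjusted p = 0.0910). It passed without DMSO replicate 3 (edgeR adjusted p = 0.0391). Vars1, the valine enzyme, was at 236, 241 and 239 CPM in DS38, against 247, 245 and 258 CPM in DMSO. All DS38 libraries were below all DMSO libraries (log2 fold change -0.07 ± 0.029, SE; by edgeR, adjusted p = 0.0844). Vars1 did pass in 3 alternatives, among them the length correction (log2 fold change -0.10, edgeR adjusted p = 0.00635). Iars1, the isoleucine enzyme, had a log2 fold change of -0.06 ± 0.029 (SE; by edgeR, adjusted p = 0.173), and passed with the length correction (edgeR adjusted p = 0.0160) and without DMSO replicate 3 (edgeR adjusted p = 0.0228). Qars1, Rars1, Wars1, Kars1, Hars1 and Farsa, which serve glutamine, arginine, tryptophan, lysine, histidine and, as the alpha subunit, phenylalanine, had log2 fold changes of 0.04, 0.02, 0.009, -0.01, -0.02 and -0.03. Their SEs were 0.028 to 0.040. The 2 subunits of the phenylalanine enzyme thus had different values, Farsb at 125.5 ± 0.799 CPM in DS38 and 116.3 ± 3.19 CPM in DMSO, and Farsa at 58.9 ± 0.508 CPM in DS38 and 60.4 ± 3.94 CPM in DMSO (SD, n = 3 each). A test of the difference between these subunits was not made.

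**Figure D2:**
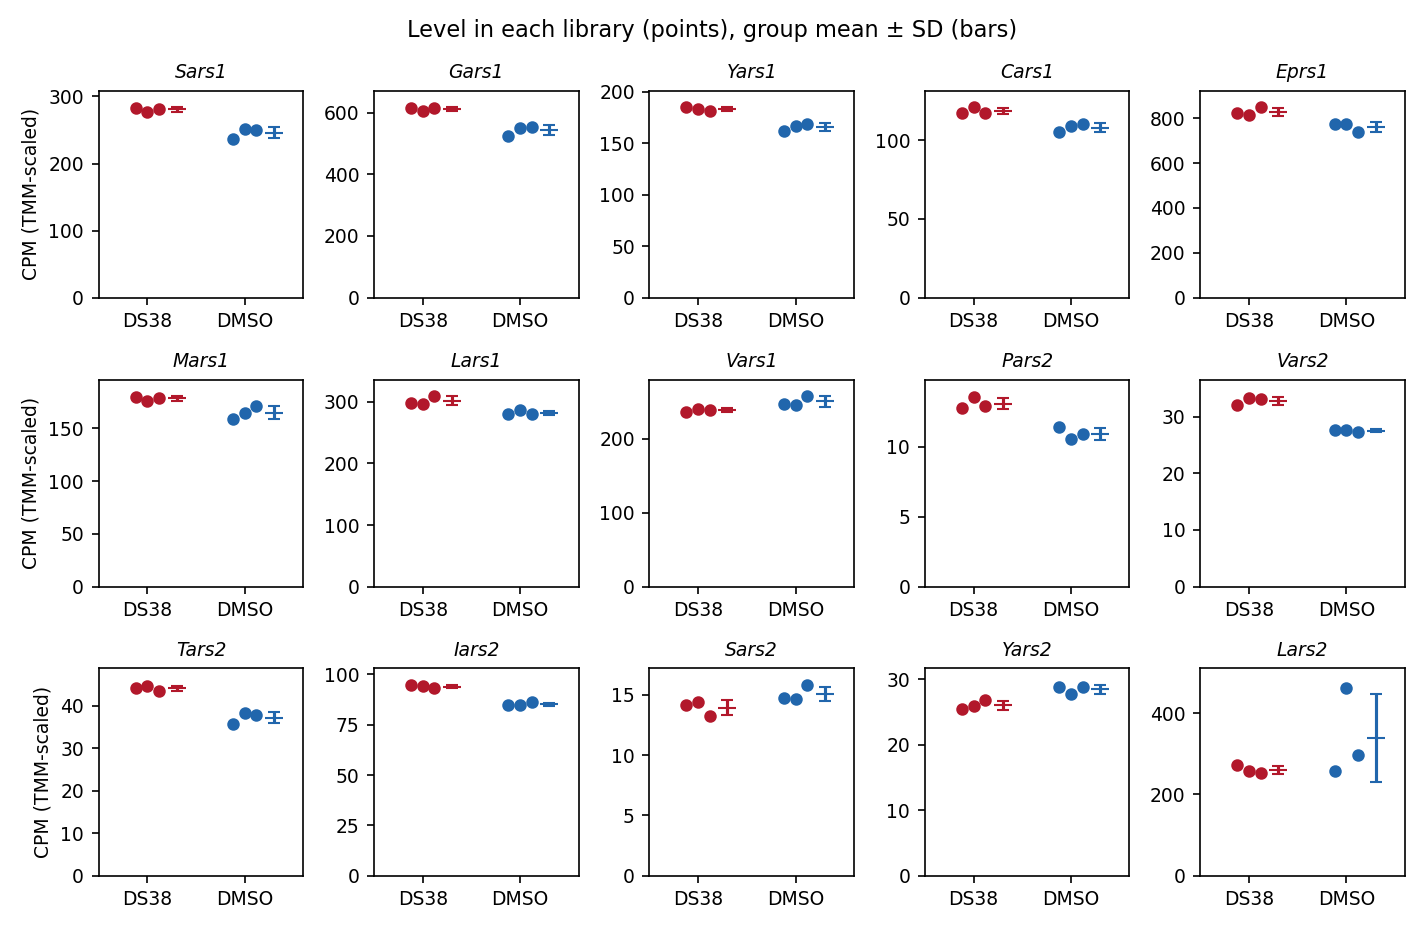
Level of 15 synthetase genes in each library (points; y axis, CPM with TMM scaling, starting at 0), with the group mean and SD beside them, DS38 in red and DMSO in blue. The DS38 points of Sars1 lie at 277 to 283 CPM, all above the DMSO points at 236.8 to 251.4 CPM, whereas DMSO replicate 2 of Lars2 lies alone at 461 CPM.

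The cytosolic genes were also grouped by what the enzymes share. The counts of each group stand beside 12.9% higher and 11.7% lower over all genes tested. Of 12 genes that have been described as induced by ATF4, 9 were higher after DS38 and 0 were lower. Their median log2 fold change was 0.10. Tars1, Wars1 and Iars1 were the 3 of that list that did not pass. The 9 that did were Aars1, Cars1, Eprs1, Gars1, Lars1, Mars1, Nars1, Sars1 and Yars1. Of the 7 other cytosolic genes 1 was higher, Farsb, and 0 lower, with a median of -0.01. That count is near the share over all genes tested and is not a result about these 7. The list of 12 was written with earlier results of these data known and is not independent evidence of its direction. Of 7 enzymes that sit in the multisynthetase complex, Eprs1, Lars1 and Mars1 were higher and 0 were lower (median 0.04), and of 12 cytosolic enzymes outside it 7 were higher and 0 lower (median 0.08). By catalytic fold, 4 of 9 class I enzymes, which carry a Rossmann-type active site, and 5 of 9 class II enzymes were higher, and 0 of either class were lower. Eprs1 holds a domain of each class and was left out of that split.

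Promoter sequences are shown because ATF4 and C/EBP factors are known to act through a composite element with the letters TGATGNAA, which was searched on both strands. RefSeq windows of GRCm38.p6, from 250 bases before to 50 bases after the annotated start, were used for 12 cytosolic and 14 mitochondrial genes. No window was used for Cars1, Hars1, Lars1, Nars1, Rars1, Vars1, Wars1, Hars2 or Pars2. Among these, Cars1, Lars1, Nars1 and Pars2 rose after DS38. Members on a single chromosome were left out by rule, and the shares over all genes were not limited in that way. The letters occurred in 5 of the 12 cytosolic genes and in 0 of the 14 mitochondrial genes. Among all 27025 genes with a window 4.51% held them, and 3.97% of all 32851 windows. The stricter TGATGCAA was present in 4 of the 12 cytosolic genes and in 1.03% of all genes, and the looser TGANGNAA in 5 of 12 cytosolic and 2 of 14 mitochondrial genes and in 18.6% of all genes. The stricter matches are also matches of TGATGNAA, and those of TGATGNAA are also matches of the looser form. A match is a description of letters, not a binding site. The 5 matching sequences follow, from 250 bases before to 20 bases after the start, with the matched letters or their reverse complement in capitals.

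Aars1 (chr8:111033592-111033861, plus strand): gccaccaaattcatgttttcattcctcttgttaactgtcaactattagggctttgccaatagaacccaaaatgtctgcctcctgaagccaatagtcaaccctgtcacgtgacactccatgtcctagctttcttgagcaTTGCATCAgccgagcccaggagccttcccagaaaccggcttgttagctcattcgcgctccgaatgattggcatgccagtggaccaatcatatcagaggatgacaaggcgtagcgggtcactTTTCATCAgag
Gars1 (chr6:55037751-55038020, plus strand): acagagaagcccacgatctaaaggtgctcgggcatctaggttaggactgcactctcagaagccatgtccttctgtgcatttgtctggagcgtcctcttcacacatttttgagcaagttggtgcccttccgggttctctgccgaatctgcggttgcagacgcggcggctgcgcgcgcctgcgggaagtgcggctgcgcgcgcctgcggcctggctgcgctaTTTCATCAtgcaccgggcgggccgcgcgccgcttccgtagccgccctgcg
Yars1 (chr4:129189653-129189922, plus strand): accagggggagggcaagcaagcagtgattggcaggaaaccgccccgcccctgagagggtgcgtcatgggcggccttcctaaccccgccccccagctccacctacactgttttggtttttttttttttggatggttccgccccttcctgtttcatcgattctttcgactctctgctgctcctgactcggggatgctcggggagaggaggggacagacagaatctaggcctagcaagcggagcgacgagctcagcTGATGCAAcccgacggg
Tars1 (chr15:11399639-11399908, minus strand): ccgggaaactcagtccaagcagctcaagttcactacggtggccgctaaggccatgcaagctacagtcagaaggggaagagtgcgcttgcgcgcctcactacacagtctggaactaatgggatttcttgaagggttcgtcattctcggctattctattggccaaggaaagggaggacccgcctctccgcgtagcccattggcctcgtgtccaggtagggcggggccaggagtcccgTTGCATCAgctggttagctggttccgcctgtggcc
Iars1 (chr13:49681880-49682149, plus strand): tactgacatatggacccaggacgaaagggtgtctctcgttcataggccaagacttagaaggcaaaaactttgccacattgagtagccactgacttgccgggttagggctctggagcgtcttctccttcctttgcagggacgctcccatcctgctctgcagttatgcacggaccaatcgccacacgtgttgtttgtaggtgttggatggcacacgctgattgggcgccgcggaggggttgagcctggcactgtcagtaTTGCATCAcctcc

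The element read TTGCATCA in Aars1, Tars1 and Iars1, its reverse complement TGATGCAA in Yars1, and TTTCATCA in Gars1 and at a second place in Aars1. The first base of the first match lay 112 bases before the start in Aars1, 30 before it in Gars1 and 15 before it in Tars1, and at base 8 of the transcript in Iars1 and base 4 in Yars1. Of 7 cytosolic genes with a window that rose, 3 held the letters, and of 5 that did not pass, 2 held them. Sars1, with the largest cytosolic rise, held none in this window.

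Mitochondrial synthetases are imported into the organelle, where they serve the translation of the few proteins encoded by mitochondrial DNA. Tars2 (ENSMUSG00000028107), the threonine enzyme, was at 44.2, 44.7 and 43.5 CPM in DS38, against 35.7, 38.2 and 37.8 CPM in DMSO. The groups were well apart, with a log2 fold change of 0.24 ± 0.039 (SE; by edgeR, adjusted p = 9.18e-05). Vars2 (ENSMUSG00000038838), the valine enzyme, was at 32.0, 33.2 and 33.2 CPM in DS38 and at 27.7, 27.6 and 27.3 CPM in DMSO. The DMSO libraries of Vars2 were almost level, and all DS38 libraries lay above them (log2 fold change 0.25 ± 0.042, SE; by edgeR, adjusted p = 0.000137).

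Pars2 (ENSMUSG00000043572), the proline enzyme, was at 12.8, 13.5 and 12.9 CPM in DS38, against 11.4, 10.5 and 10.9 CPM in DMSO. At 4428 reads in all it was among the members with fewest reads, yet the groups did not overlap (log2 fold change 0.26 ± 0.063, SE; by edgeR, adjusted p = 0.00420). Iars2 (ENSMUSG00000026618), the isoleucine enzyme, was at 94.6, 94.4 and 93.1 CPM in DS38 and at 84.9, 84.6 and 86.1 CPM in DMSO. Its groups did not overlap, and it rose by 0.14 ± 0.030 on the log2 scale (SE; by edgeR, adjusted p = 0.00133). Iars2 shares 2034 exon bases with Rab3gap2 on the other strand. The 4 genes passed in all 16 alternatives.

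The 2 mitochondrial genes that fell were less stable. Yars2 (ENSMUSG00000022792), the tyrosine enzyme, was at 25.4, 25.9 and 26.8 CPM in DS38, against 28.8, 27.7 and 28.8 CPM in DMSO. All DS38 libraries were below all DMSO libraries (log2 fold change -0.13 ± 0.045, SE; by edgeR, adjusted p = 0.0393). That call held in 8 of 16 alternatives, with adjusted p from 0.00514 to 0.156. It was lost without DS38 replicate 1 or 2 (edgeR adjusted p = 0.156 and 0.110) and without DMSO replicate 1 or 3 (edgeR adjusted p = 0.115 and 0.0661).

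Lars2 (ENSMUSG00000035202), the leucine enzyme, was at 272, 257 and 252 CPM in DS38, against 259, 461 and 298 CPM in DMSO. The groups overlapped, and the DMSO mean was set by replicate 2. The log2 fold change was -0.38 ± 0.11 (SE; by edgeR, adjusted p = 0.0170). Without DMSO replicate 2 it was -0.10 and did not pass (edgeR adjusted p = 0.177), nor did it pass with robust dispersion (edgeR adjusted p = 0.365), with DESeq2 (adjusted p = 0.295), or without DS38 replicate 2 or 3 (edgeR adjusted p = 0.0551 and 0.0723). DMSO replicate 2 stood at 1.55 times the higher of the other DMSO libraries. Among 2732 genes with a mean of at least 100 CPM, a comparison made after the Lars2 values were seen, 1 gene had a larger such ratio. It was ENSMUSG00000119584, which has no symbol here, with a ratio of 2.01. Its level was 2326, 2372 and 1937 CPM in DS38, against 2819, 7247 and 3610 CPM in DMSO.

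For the other 10 mitochondrial genes the test was not passed. Nars2, the asparagine enzyme, did not overlap between groups, at 12.6 to 13.1 CPM in DS38 and 11.2 to 11.9 CPM in DMSO (log2 fold change 0.15 ± 0.061, SE; by edgeR, adjusted p = 0.0718). Hars2, the histidine enzyme, had a log2 fold change of 0.12 ± 0.049 (SE; by edgeR, adjusted p = 0.0721) and shares 195 exon bases with Hars1 on the other strand. Its log2 fold change was 0.06 without DMSO replicate 1 (edgeR adjusted p = 0.423) and 0.19 without DMSO replicate 2, where it passed (edgeR adjusted p = 0.00900). Sars2, the serine enzyme, was at 14.2, 14.4 and 13.2 CPM in DS38, against 14.8, 14.7 and 15.8 CPM in DMSO. Its DS38 libraries were all below its DMSO libraries (log2 fold change -0.12 ± 0.060, SE; by edgeR, adjusted p = 0.172). It passed with the length correction (log2 fold change -0.16, edgeR adjusted p = 0.0435). Aars2, Fars2, Ears2, Wars2, Rars2, Mars2 and Cars2, for alanine, phenylalanine, glutamate, tryptophan, arginine, methionine and cysteine, had log2 fold changes of 0.02, 0.02, 0.01, 0.007, -0.008, -0.03 and -0.08, with SEs of 0.038 to 0.073.

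The groups of libraries did not overlap for 11 cytosolic genes that were higher and 1 that was lower in DS38, and for 5 mitochondrial genes that were higher and 2 that were lower. Over all genes tested, 20.7% were higher and 17.9% lower without overlap. Depth differed between the compartments. Cytosolic genes had 2489 to 72351 reads in a library and a median SE of 0.029, and mitochondrial genes had 397 to 22170 reads and a median SE of 0.057. The smallest called change was 0.08 on the log2 scale among cytosolic genes and 0.13 among mitochondrial genes, and a change of 0.15 in Nars2 was not called.

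Per exon length, cytosolic synthetase transcripts stood above mitochondrial ones. The median level was 47.03 CPM per kb over the cytosolic genes and 4.52 CPM per kb over the mitochondrial genes in DS38, and 44.4 and 4.66 CPM per kb in DMSO. Gars1, whose product serves both compartments, was highest at 196 ± 1.79 CPM per kb in DS38 and 174 ± 5.05 CPM per kb in DMSO (SD, n = 3 each). Nars1 followed at 100.7 ± 1.51 CPM per kb in DS38 and 95.4 ± 0.595 CPM per kb in DMSO. Rars1, Iars1 and Kars1 were next and close together, at 62.1, 59.1 and 58.4 CPM per kb in DS38 and 61.5, 61.4 and 58.9 CPM per kb in DMSO. Cars2 was lowest, at 1.27 ± 0.0794 CPM per kb in DS38 and 1.34 ± 0.0684 CPM per kb in DMSO. The levels overlapped at the edges. Rars2, at 17.3 CPM per kb in DS38 and 17.4 CPM per kb in DMSO, and Lars2, at 23.5 CPM per kb in DS38 and 30.6 CPM per kb in DMSO, both stood above the cytosolic genes Qars1 and Farsa in either group. Qars1 was at 15.03 CPM per kb in DS38 and 14.7 CPM per kb in DMSO, and Farsa at 12.98 CPM per kb in DS38 and 13.3 CPM per kb in DMSO. Lars2 also stood above Cars1 in either group (18.02 CPM per kb in DS38 and 16.4 CPM per kb in DMSO), and in DMSO its mean was above those of Wars1 and Yars1 (29.3 and 27.9 CPM per kb), by less than its SD of 9.68 CPM per kb. Rars2 was above Cars1 in DMSO only. The deposited lengths run to 18102 bases for Eprs1 and 11294 bases for Mars2, and whether these cells use transcripts of that length was not tested.

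**Figure D3:**
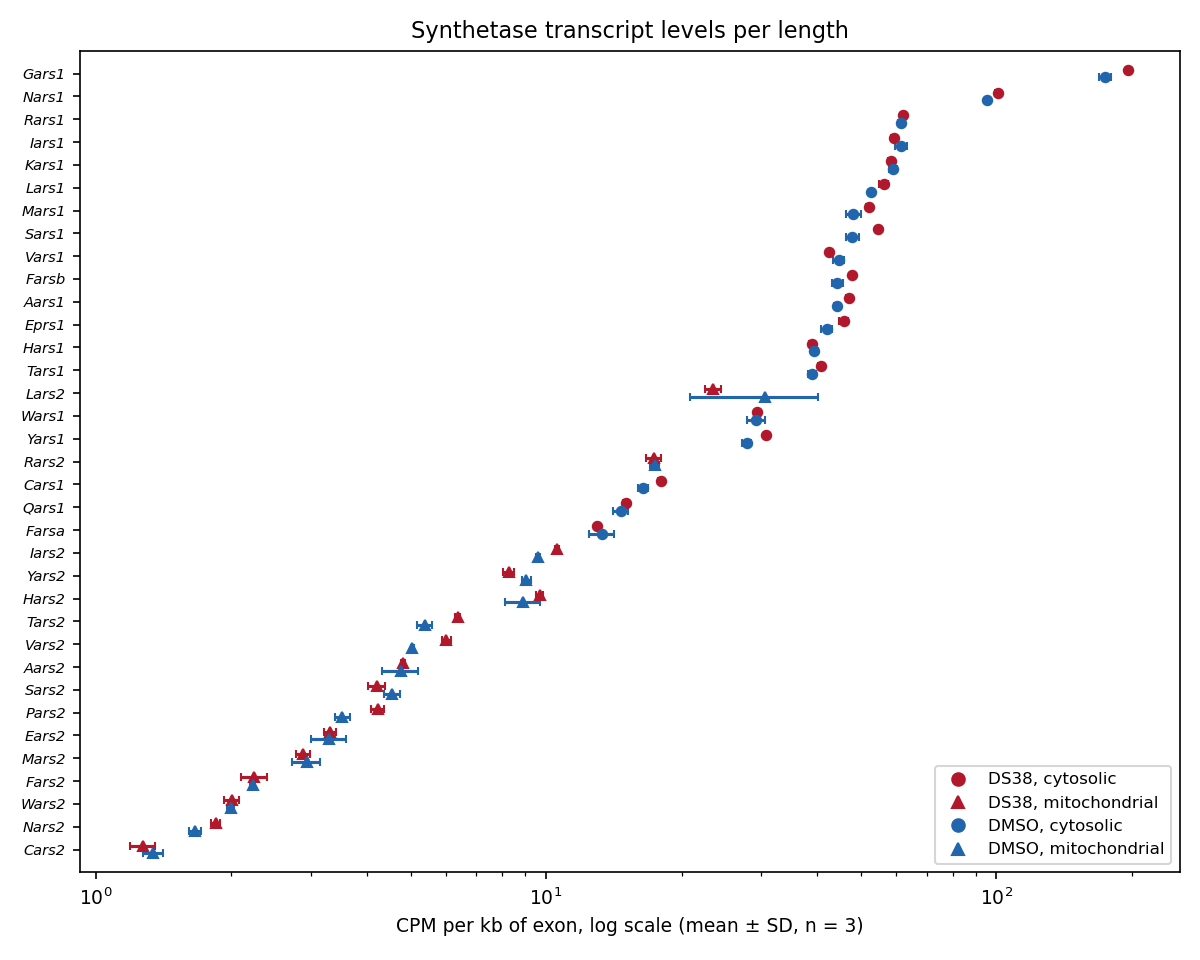
Level per exon length (x axis, CPM per kb, log scale) of 35 synthetase genes as mean ± SD of 3 libraries, DS38 in red above DMSO in blue, circles for cytosolic and triangles for mitochondrial enzymes. Gars1 is highest at 196 and 174 CPM per kb and Cars2 lowest at 1.27 and 1.34 CPM per kb in DS38 and DMSO.

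Summed over the 19 genes, cytosolic synthetase transcripts were at 5116, 5062 and 5152 CPM in DS38, against 4774, 4865 and 4862 CPM in DMSO, a ratio of 1.06. The mitochondrial genes summed to 704, 694 and 682 CPM in DS38, against 660, 876 and 710 CPM in DMSO, a ratio of 0.926. Without Lars2 the mitochondrial sum was 432, 437 and 430 CPM in DS38, against 401, 415 and 412 CPM in DMSO, also a ratio of 1.06.

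For 13 amino acids a cytosolic enzyme could be set against its mitochondrial partner within each library. Their ratio does not depend on a scaling factor common to all genes of a library. A correction for gene length need not cancel where the partners differ in length, and ratios with that correction are not given. The ratio of cytosolic to mitochondrial enzyme was higher in DS38 in 8 pairs and lower in 5. In 7 pairs the groups did not overlap, 4 with the ratio higher and 3 with it lower. With 3 libraries against 3 the exact two-sided permutation test cannot go below p = 0.10, and these 7 pairs reached it, with an adjusted p of 0.186 over the 13 pairs. No pair passed.

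The valine pair had the largest difference relative to its SE. Its log2 ratio of Vars1 to Vars2 was 2.84, 2.82 and 2.81 in DS38, against 3.12, 3.11 and 3.20 in DMSO, a difference of -0.32 ± 0.031 (SE). The libraries were tightly grouped, and the level per length of Vars1 was 7.08 times that of Vars2 in DS38 and 8.85 times in DMSO. The isoleucine and threonine pairs had differences of the same sign, -0.20 ± 0.036 and -0.18 ± 0.030 (SE).

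The serine pair differed the other way. Its log2 ratio of Sars1 to Sars2 was 3.69, 3.63 and 3.78 in DS38, against 3.37, 3.46 and 3.35 in DMSO, a difference of 0.30 ± 0.054 (SE). All DS38 libraries stood above all DMSO libraries. The tyrosine and cysteine pairs had differences of 0.27 ± 0.044 and 0.21 ± 0.048 (SE), also without overlap. The leucine pair had the largest difference, 0.43 ± 0.25 (SE), with log2 ratios of 1.18, 1.26 and 1.34 in DS38 and 1.16, 0.357 and 0.963 in DMSO. Here DMSO replicate 1 almost touched the lowest DS38 library, and the SE was over 4 times that of any pair named above. In the histidine, methionine, asparagine, alanine, arginine and tryptophan pairs the libraries overlapped, with differences from -0.14 to 0.14.

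**Figure D4:**
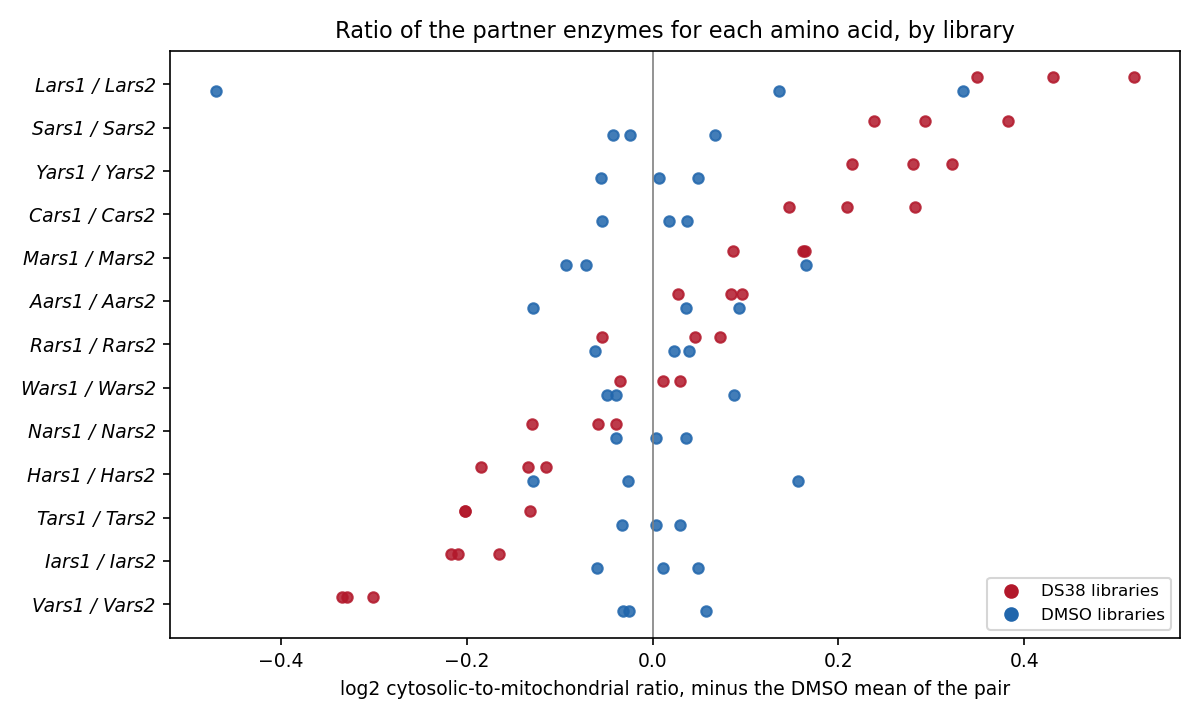
Log2 ratio of the cytosolic to the mitochondrial enzyme per length for 13 amino acids in each library (points), minus the DMSO mean of the pair (x axis), DS38 in red above DMSO in blue. The DS38 points of the valine pair lie about 0.32 below the DMSO mean and those of the serine pair about 0.30 above it, while the DMSO points of the leucine pair are widely spread.

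Other genes of tRNA charging and use were followed as lists, whose counts stand beside 12.9% higher and 11.7% lower over all genes tested. Shares near those values, as for the lists of tRNA maturation and of RNA polymerase III, are not a result about the list. Of 3 non-enzyme scaffold genes of the multisynthetase complex 0 were called. That of smallest p, Eef1e1, had a log2 fold change of -0.09 ± 0.040 (SE; by edgeR, adjusted p = 0.0957). By edgeR 2 of the 3 had an unadjusted p under 0.05. Of 5 cytosolic elongation factor genes 2 were higher and 0 lower. These were Eef1g, a subunit of the exchange factor for eEF1A (log2 fold change 0.18 ± 0.029, SE), and Eef2, the translocase (0.13 ± 0.027). Of 10 genes of mitochondrial tRNA charging and translation 2 were higher and 0 lower, Mtfmt, which formylates the initiator methionyl-tRNA (0.16 ± 0.053), and Gfm2, a factor of ribosome recycling (0.15 ± 0.049).

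Of 6 genes for editing, selenocysteine and a further threonine enzyme, Pstk, the kinase on the route to selenocysteinyl-tRNA, was higher (log2 fold change 0.20 ± 0.065, SE; by edgeR, adjusted p = 0.0280). Tars3, a second cytosolic threonine enzyme, was lower, at 59.4 ± 0.664 CPM in DS38 and 66.3 ± 1.198 CPM in DMSO (SD, n = 3 each; edgeR adjusted p = 0.00113). The 3 threonine enzymes thus had log2 fold changes of 0.24 for Tars2, 0.07 for Tars1 and -0.16 for Tars3. Of 13 genes of tRNA maturation and export 2 were higher and 0 lower, Xpot, the tRNA exportin (0.08 ± 0.029), and Tsen54, of the splicing endonuclease (0.18 ± 0.063). Of 14 genes of RNA polymerase III and its factors, which transcribe tRNA genes, 0 were higher and 2 lower, Polr3k (-0.17 ± 0.033) and Bdp1 (-0.19 ± 0.040).

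Of 23 regulators and targets of the integrated stress response 18 were higher and 0 were lower. Over all genes tested 12.9% were higher and 11.7% lower. The list was chosen with earlier results of these data known and is not independent evidence of its direction. Psat1, Mthfd2, Vldlr, Eif2ak3 and Eif2ak4 were the 5 that did not pass, with log2 fold changes from -0.09 to 0.06. The median log2 fold change of the 23 was 0.18, above the median of 0.10 over the synthetases described as ATF4-induced. Atf5 and Pycr1 led that list by p, with log2 fold changes of 0.92 ± 0.043 and 0.70 ± 0.041 (SE). Atf4 itself, chosen for mention after its values were seen, was at 277 ± 4.07 CPM in DS38 and 247 ± 11.4 CPM in DMSO (SD, n = 3 each), a log2 fold change of 0.16 ± 0.032 (SE; by edgeR, adjusted p = 0.000590). The largest rise among the mitochondrial synthetases was 0.26, in Pars2, and among the cytosolic ones 0.19, in Sars1. Both were below the values of Atf5 and Pycr1, which were picked by p. The called genes of the stress response list ran from 0.10 for Slc7a5 to 0.95 for Trib3, and so lay on either side of these rises. A difference between these lists was not tested.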

How the data were processed

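The measurement was bulk RNA-seq of 6 libraries, 3 per group. What the authors deposited is raw counts of reads for each Ensembl gene, beside each gene's length. The submitters' processing notes list STAR (2.7.9a), Subread (2.0.3) with featureCounts, edgeR, and R (4.1.0), and the builds GRCm39 and GRCh38.p13, without saying what each was used for. How strand and multi-mapped reads were treated is not given in the sources used here. A gene name table gave symbols for 52083 of 55416 identifiers. Exon overlaps came from GENCODE M21 (GRCm38), and no gene coordinates are given because builds differ.

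Genes were filtered with filterByExpr (minimum count 10, total 15), scaled by TMM and tested two-sided with edgeR 4.0.16 (quasi-likelihood, group only) in R 4.3.3, with Benjamini-Hochberg adjustment over 17679 genes at 0.05. DESeq2 1.42.0 and limma 3.58.1 served as alternatives, and figures were drawn with Python 3.11.15 and matplotlib 3.10.9. The procedure was tested on simulated data. Levels are TMM-scaled counts per library size (CPM), divided by the deposited length where given per kb. Counts of replicates differed by more than sampling noise in every pair, and more so in DMSO. Chi-square per degree of freedom was 2.94 to 3.63 between DS38 libraries and 8.31 to 9.37 between DMSO libraries. The members and lists were chosen with earlier results of these data known. Values per library are given for the 6 cytosolic and 4 mitochondrial genes of largest called rise, up to 4 called falls of each compartment, and both partners of the 3 pairs that differed most. From each other list the 2 of smallest adjusted p in each direction are named, or the 1 of smallest p where none passed. Alternatives were DESeq2, limma-voom, RLE scaling, library size alone, no filter, at least 5 CPM in 3 libraries, robust dispersion, a replicate block, counts thinned to the smallest library, a length correction, and leaving out each library. Promoter letters were counted in RefSeq windows of GRCm38.p6.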

Additional observations from a re-analysis of the deposited data

How the results depend on the processing

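Cars1, Eprs1, Gars1, Sars1, Yars1, Iars2, Pars2, Tars2 and Vars2 were higher in DS38 in all 16 alternatives. The count of higher cytosolic genes was 6 with the length correction and 7 to 11 with each library left out, against 10. The count of lower ones was 1 with DESeq2 and with the 5 CPM filter, 2 with the length correction, and 0 to 1 with each library left out, against 0. The count of lower mitochondrial genes was 1 with DESeq2, library size alone, no filter, robust dispersion, the replicate block and thinning, 3 with the length correction, and 0 to 1 with each library left out, against 2. The cytosolic median log2 fold change was 0.044 with the length correction, against 0.078. The mitochondrial median log2 fold change was -0.011 with the length correction, 0.047 with library size alone, 0.0048 with DESeq2, 0.0054 with RLE scaling and -0.0016 to 0.030 with each library left out, against 0.013. The ratio of summed mitochondrial levels was 1.06 without Lars2, against 0.926 with it, an alternative chosen after seeing the data. The causes were not tested. Log2 fold changes near 0 that changed sign, none of which passed under any alternative, were Wars2 (-0.000237) with DESeq2 and Wars2 (-0.000345) with RLE scaling. With library size alone they were Farsa (0.00156), Hars1 (0.0171), Kars1 (0.0226), Mars2 (0.00777), Rars2 (0.027), and after thinning Aars2 (-0.015), Rars2 (0.0172). With the length correction they were Rars1 (-0.0293), Wars1 (-0.0344), Aars2 (-0.0143), Ears2 (-0.0203), Fars2 (-0.00855), Mars2 (0.0173), Wars2 (-0.015). With each library left out, values ran from -0.0788 to 0.00978 in Farsa, -0.0212 to 0.00116 in Kars1, -0.0207 to 0.0411 in Wars1, -0.0245 to 0.0881 in Aars2, -0.063 to 0.0717 in Ears2, -0.0393 to 0.0486 in Fars2, -0.0801 to 0.0204 in Mars2, -0.0358 to 0.0202 in Rars2, -0.0218 to 0.0332 in Wars2. Same-numbered libraries did not deviate together (r = 0.035, -0.011 and -0.027), and DS38 replicates 2 and 3 correlated best with another number. With the replicate block 2108 genes were higher and 1902 lower, and 9 cytosolic and 4 mitochondrial genes were higher, Nars1 and Yars2 being lost (edgeR adjusted p = 0.0804 and 0.0554). Depth limits the mitochondrial genes most, with SEs up to 0.073 outside Lars2.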
